A study of Mus musculus with 36 samples.

Results

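Transcripts of 7 inhibitory checkpoint genes, Ctla4, Lag3, Havcr2, Tigit, Btla, Cd276 and Ido1, were counted in 36 mouse pancreatic tumours. They were taken by name from a panel of 750 endogenous genes, and all 7 were present. WT C57BL/6 mice had received an orthotopic graft, that is an implant into the pancreas, of KPfC BMF-A3 cells, so every tumour grew from a single implanted cell line in a host with its own immune cells. The sex and age of the mice are not given in the sources used here. Therapy ran from day 10 until the animals were killed on day 35, and the 8 arms held every combination of 3 agents. The RNA was hybridised to the mouse version of the PanCancer Immune Profiling Panel (nCounter), whose fluorescent barcodes are counted one by one without amplification. P-values measure the spread between these tumours.

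The Vehicle arm (6 tumours) received none of the agents. The TP-0903 arm (4 tumours) received the Axl inhibitor TP-0903 by gavage at 25 mg/kg every day, Axl being a receptor tyrosine kinase. The Gemcitabine arm (4 tumours) received that nucleoside analogue by intraperitoneal injection at 25 mg/kg, 3 times a week. The Anti-PD1 arm (4 tumours) received the RMP14-1 antibody against PD1 at 5 mg/kg, 2 times a week. Pairs of agents were given in the TP-0903+Gemcitabine arm (5 tumours), the TP-0903+anti-PD1 arm (4 tumours) and the Gemcitabine+anti-PD1 arm (4 tumours). All 3 agents were given in the TP-0903+Gemcitabine+anti-PD1 arm (5 tumours), called the triple arm in what follows. All 7 comparisons with Vehicle share the same 6 Vehicle tumours, so they are not independent of each other.

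Checkpoint receptors sit on T cells and natural killer cells and damp their activation when a ligand on a neighbouring cell engages them. CTLA-4 competes with the costimulatory receptor CD28 for CD80 and CD86, whereas LAG-3, TIM-3 (encoded by Havcr2), TIGIT and BTLA act through other ligands, such as MHC class II for LAG-3, poliovirus receptor (Pvr) for TIGIT and HVEM (Tnfrsf14) for BTLA. B7-H3, the product of Cd276, is a B7 family ligand carried by tumour and stromal cells, and IDO1 is an interferon-induced enzyme that degrades tryptophan, which T cells need to proliferate. Pancreatic tumours are known for a dense stroma and few T cells.

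Total counts per tumour ran from 115973 to 552876 (median 357262), and each lane had its own background threshold, the mean of its 8 negative controls plus 2 SD, between 8.21 and 26.3 raw counts. Scaled counts are raw counts divided by the lane's housekeeping factor. The lanes came from 3 cartridges of 12. Every lane of the Vehicle and TP-0903 arms was on cartridge 1, with 2 lanes of the Gemcitabine arm. The other 5 treated arms therefore shared no cartridge with Vehicle. For them arm and cartridge cannot be told apart except through a block fitted across the arms that span 2 cartridges. Those arms were Gemcitabine, with 2 lanes on cartridge 1 and 2 on cartridge 2, and TP-0903+anti-PD1, with 1 lane on cartridge 2 and 3 on cartridge 3. The tissue label was checked on markers. The 4 epithelial and tumour cell genes summed to a median of 7514 scaled counts, while the T cell core list was close to background: Cd3d exceeded the threshold in 34 of 36 lanes, Cd8a in 2 and Cd8b1 in 0. Tumours 3 of the Vehicle arm and 3 of the TP-0903 arm stood apart. Vehicle replicate 3 had the highest summed level of the lung epithelium list, 14591 scaled counts against a median of 28.2, and TP-0903 replicate 3 the highest of the liver list, 192960 against a median of 289. The second of these also had the lowest epithelial level, 613. Results that rest on these tumours are given with and without them, except where stated.

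Most members were measured close to background. Tigit and Cd276 exceeded the lane threshold in 36 of 36 tumours, Lag3 in 32, Havcr2 in 28, Ctla4 in 25, Btla in 12 and Ido1 in 9. All 7 passed the filter of at least 4 lanes above threshold, and every tumour had at least 3 of them above it. As a ratio to the lane's negative-control mean, the median count was 11.9 for Cd276, 3.26 for Tigit, 2.38 for Havcr2, 2.17 for Lag3, 1.94 for Ctla4, 1.39 for Ido1 and 1.34 for Btla. Probes differ in efficiency, so these ratios say how far each gene lay above background and do not rank the genes by abundance. In bulk RNA, fewer cells of a type and less RNA per cell cannot be told apart.

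**Figure D1:**
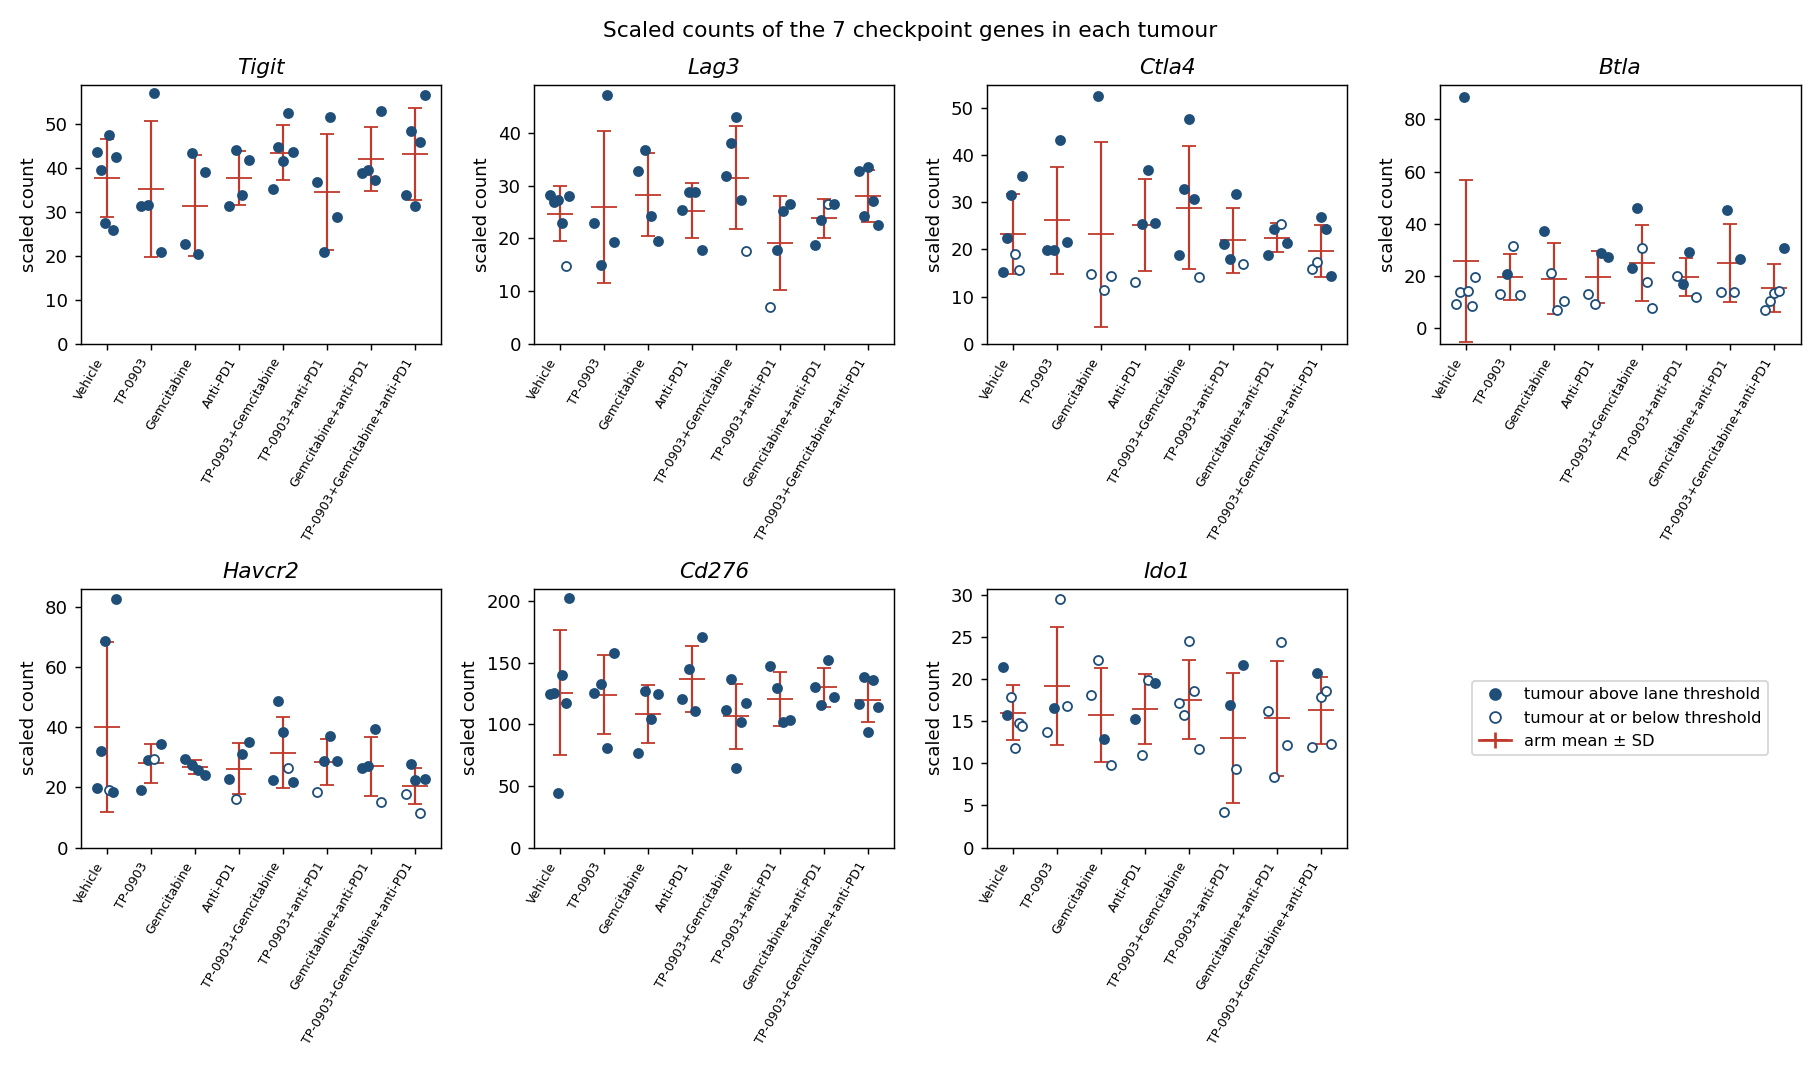
Scaled count (raw count divided by the housekeeping factor) of each gene in every tumour, by arm. Filled points lie above the lane's background threshold and open points do not, and red bars are the arm mean and SD. Cd276 and Tigit are filled in all 36 tumours and Btla and Ido1 in 12 and 9, and for every gene each treated arm overlaps Vehicle.

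None of the 7 genes passed the test in any of the 16 comparisons, which covered the 7 treated arms against Vehicle, the addition of TP-0903 to 3 regimens, 3 average effects of single agents and 3 interactions. The test was edgeR's quasi-likelihood test over 683 genes, with genes called at an adjusted p under 0.05. Of 112 tests of members (7 genes in 16 comparisons), 1 had an unadjusted p under 0.05 with edgeR, that of Havcr2 in the triple arm. DESeq2 and limma on log2(scaled count + 1) also called 0 of them, with 1 unadjusted p under 0.05 each. Few genes of the panel were called either. The share of all genes called was 4.83% for TP-0903 against Vehicle, 0% for Gemcitabine, 0% for Anti-PD1, 0.439% for TP-0903+Gemcitabine, 0% for TP-0903+anti-PD1, 0.146% for Gemcitabine+anti-PD1 and 0.878% for the triple arm. It was 0% for TP-0903 added to Gemcitabine, to Anti-PD1 or to Gemcitabine+anti-PD1. For the average effects it was 0% for TP-0903, 0.146% for Gemcitabine and 0% for Anti-PD1. For the interactions it was 0% for TP-0903 with Gemcitabine, 1.46% for TP-0903 with Anti-PD1 and 0% for Gemcitabine with Anti-PD1. At an unadjusted p under 0.05, the share of all genes was 14.5% for TP-0903, 9.08% for Gemcitabine, 5.71% for Anti-PD1, 14.9% for TP-0903+Gemcitabine, 10.7% for TP-0903+anti-PD1, 10.5% for Gemcitabine+anti-PD1 and 12.9% for the triple arm, each against Vehicle. That share was 7.76%, 4.25% and 2.49% for TP-0903 added to Gemcitabine, to Anti-PD1 and to Gemcitabine+anti-PD1. It was 11.4%, 14.3% and 5.71% for the average effects of TP-0903, Gemcitabine and Anti-PD1. For the interactions it was 5.12% (TP-0903 with Gemcitabine), 11.6% (TP-0903 with Anti-PD1) and 3.66% (Gemcitabine with Anti-PD1).

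In 49 of 49 pairs of a member and a treated arm, the scaled counts overlapped those of Vehicle. The share of all genes whose values did not overlap was 1.02% for TP-0903, 1.02% for Gemcitabine, 0.146% for Anti-PD1, 1.46% for TP-0903+Gemcitabine, 1.9% for TP-0903+anti-PD1, 2.34% for Gemcitabine+anti-PD1 and 1.32% for the triple arm. When the 8 arms were ordered by mean, neighbouring arms differed by less than the larger of their SDs for every member, a description of the order that sorting makes likely and that tests nothing.

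Havcr2 encodes TIM-3, a receptor of exhausted T cells that macrophages and dendritic cells also carry. In Vehicle tumours it ran from 18.5 to 82.4 scaled counts with a median of 26.0, and replicates 3 and 6, at 68.5 and 82.4, held its 2 highest values of all 36 tumours. The 4 other Vehicle tumours lay between 18.5 and 32.2. In the triple arm the 5 values were 17.9, 27.7, 22.4, 11.5 and 22.6, and 2 of them were at or below the lane threshold. The 2 arms overlapped, since the triple arm's values lay within or below the range of the lower 4 Vehicle tumours. The arm means were 20.4 ± 6.09 (SD, n = 5) and 40.1 ± 28.2 (n = 6). The log2 fold was -0.97 ± 0.36 (SE), with an unadjusted edgeR p of 0.0113 and an adjusted p of 0.264, beside 12.9% of all genes under an unadjusted p of 0.05.

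Both high Vehicle tumours weighed on that value. Without Vehicle replicate 6 the log2 fold was -0.63 (edgeR adjusted p = 0.406), and without the pair of tumours that stood apart it was -0.76 (adjusted p = 0.54). With cartridge as a block it was -1.56 (edgeR adjusted p = 0.999). Over all alternatives that gave one, the adjusted p ran from 0.12 to 0.999. The summed dendritic cell list ran from 126 to 208 in the triple arm and from 129 to 504 in Vehicle, the T cell core list from 158 to 239 and from 144 to 441, and the macrophage list from 2444 to 4699 and from 1985 to 3482. The part of these cell lists in the Havcr2 value was not tested.

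Havcr2 had a negative log2 fold against Vehicle in 7 of 7 arms, from -0.97 to -0.36, all measured against the same Vehicle tumours. The 2 high Vehicle tumours weighed on that direction: the other 4 had 19.9, 32.2, 19.0 and 18.5. The means of all 7 treated arms lay above 3 of these 4, that of the triple arm at 20.4 and the others at 26.1 to 31.5. Without Vehicle replicate 6 alone, the 7 log2 folds ran from -0.63 to -0.01. In TP-0903 tumours its values were 19.1, 29.0, 29.5 and 34.5, and in Gemcitabine tumours 29.4, 27.5, 25.8 and 24.1. The Anti-PD1 tumours had 22.6, 16.1, 30.9 and 34.9. Gemcitabine tumours formed the tightest set for this gene, with an SD of 2.29, and no treated tumour reached the 2 high Vehicle values. TP-0903+Gemcitabine gave 22.3, 48.6, 38.4, 26.3 and 21.8, TP-0903+anti-PD1 18.4, 28.8, 37.1 and 28.9, and Gemcitabine+anti-PD1 26.2, 26.9, 39.3 and 15.3. Each of these arms overlapped the lower 4 Vehicle tumours. Scaling to the positive controls in place of the housekeeping genes made Havcr2 the sole member called, lower in TP-0903+Gemcitabine with a log2 fold of -0.99 (edgeR adjusted p = 0.0375). That scaling moved the median log2 fold of all genes in this comparison from 0.07 to -0.59.

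Ctla4 encodes the receptor that competes for CD80 and CD86. Its arm means ran from 19.8 ± 5.50 scaled counts in the triple arm (SD, n = 5) to 28.8 ± 13.1 in TP-0903+Gemcitabine (n = 5), with Vehicle at 23.3 ± 8.53 (n = 6). Vehicle tumours ran from 15.3 to 35.7 with a median of 20.6. Gemcitabine tumours had 14.7, 52.5, 11.4 and 14.3, and the tumour at 52.5 was the sole one above the lane threshold and the highest of all 36. The log2 folds against Vehicle lay between -0.26 in the triple arm and 0.29 in TP-0903+Gemcitabine, with SEs of 0.35 to 0.39. With cartridge as a block the value in TP-0903+Gemcitabine was 1.65 and that in Anti-PD1 1.48, against 0.11 without it (edgeR adjusted p = 0.353 and 0.999). Cartridges 1 and 2 were linked only by the Gemcitabine arm. Its tumours had 14.7 and 52.5 on cartridge 1, and 11.4 and 14.3 on cartridge 2. How far the block values rest on the tumour at 52.5 was not tested. The order of the arms also turned with the background: the scaled negative-control mean was 16.5 in TP-0903+Gemcitabine against 10.8 in Vehicle, and after its subtraction Ctla4 had a mean of 12.3 ± 8.77 (SD, n = 5) there, 12.4 ± 7.10 (n = 6) in Vehicle and its highest, 13.8 ± 7.90 (n = 4), in Anti-PD1.

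Lag3 encodes a receptor that binds MHC class II. Its arm means ran from 19.1 ± 8.89 in TP-0903+anti-PD1 (SD, n = 4) to 31.6 ± 9.83 in TP-0903+Gemcitabine (n = 5), with Vehicle at 24.7 ± 5.25 (n = 6). The Vehicle tumours ran from 14.8 to 28.3, and the TP-0903+Gemcitabine tumours had 31.8, 38.1, 43.0, 27.3 and 17.6. In that arm 3 of 5 tumours lay above every Vehicle tumour. The other 2 lay within the Vehicle range, and 1 of these was at or below its lane threshold. The log2 fold was 0.34 ± 0.28 (SE, edgeR adjusted p = 0.563), and 1.00 with cartridge as a block (adjusted p = 0.443). After subtraction of the negative-control mean this arm had 15.0 ± 6.77 (SD, n = 5) against 13.9 ± 4.73 in Vehicle (n = 6), and was below the triple arm at 17.2 ± 4.24 (n = 5) and Gemcitabine at 17.05 ± 5.32 (n = 4). The average log2 fold of Lag3 with Gemcitabine was 0.25 ± 0.16 (SE, edgeR adjusted p = 0.517), without the 2 tumours that stood apart it was 0.35 (adjusted p = 0.217), and with cartridge as a block it was 0.00 ± 0.28 (adjusted p = 0.999).

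Tigit encodes a receptor that binds the poliovirus receptor on tumour and myeloid cells. Vehicle tumours ran from 25.9 to 47.4 with a median of 40.9 scaled counts, and the arm means from 31.3 ± 11.5 in Gemcitabine (SD, n = 4) to 43.5 ± 6.23 in TP-0903+Gemcitabine (n = 5). The Gemcitabine tumours had 22.6, 43.3, 20.5 and 39.0. The TP-0903+Gemcitabine tumours had 35.2, 44.7, 41.5, 52.5 and 43.5, so the lower 2 Gemcitabine tumours lay below all of them and the other 2 within them. TP-0903 added to Gemcitabine gave a log2 fold of 0.47 ± 0.28 (SE, edgeR adjusted p = 0.724). Tigit had the smallest spread between tumours of an arm among the 7 genes, with an SD of 0.39 on the log2 scale. Its highest value of all 36 tumours, 57.0, was that of TP-0903 replicate 3, the tumour with liver transcripts. The log2 fold of TP-0903 against Vehicle was -0.13, and -0.51 without the 2 tumours that stood apart (edgeR adjusted p = 0.852 and 0.810).

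Btla encodes the receptor for HVEM, found on B cells, T cells and dendritic cells. In Vehicle tumours it ran from 8.32 to 88.5 scaled counts with a median of 14.01, and the highest value was that of replicate 3, the tumour with lung transcripts. The other 5 Vehicle tumours had a mean of 13.0 ± 4.51 (SD, n = 5) and were all at or below the lane threshold. Leaving out that tumour and TP-0903 replicate 3 turned the sign of most Btla folds. With all tumours, 6 of 7 log2 folds against Vehicle were negative, from -0.69 to 0.00. Without the pair all 7 were positive, from 0.25 to 0.95, the largest in Gemcitabine+anti-PD1, and none was called (edgeR adjusted p = 0.309 there). The median log2 fold of all genes in these 7 comparisons lay between 0.04 and 0.27 without the pair. The Gemcitabine+anti-PD1 tumours had 13.7, 45.4, 13.8 and 26.5, with 2 of 4 above threshold. Btla had the widest spread within arms, with an SD of 0.87 on the log2 scale.

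Cd276 encodes the B7 family ligand B7-H3 and was the member farthest above background. Vehicle tumours ran from 44.3 to 202 scaled counts with a median of 125, and both extremes of all 36 tumours were Vehicle tumours, the lowest being replicate 3 and the highest replicate 6. The arm means ran from 106 ± 26.6 in TP-0903+Gemcitabine (SD, n = 5) to 137 ± 27.1 in Anti-PD1 (n = 4). Anti-PD1 tumours had 120, 145, 111 and 171, and TP-0903+Gemcitabine tumours 112, 137, 64.5, 102 and 117. Both arms lay inside the Vehicle range. The average log2 folds were -0.08 ± 0.14 for TP-0903, -0.13 ± 0.14 for Gemcitabine and 0.13 ± 0.14 for Anti-PD1 (SE), and the 95% intervals of the 3 ran from -0.41 to 0.40. Without the 2 tumours that stood apart, these averages were -0.09, -0.21 and 0.04 in the same order (edgeR adjusted p = 0.890, 0.327 and 0.993). The log2 fold in TP-0903+Gemcitabine then moved from -0.24 to -0.41 (edgeR adjusted p = 0.173).

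Ido1 encodes the tryptophan-degrading enzyme and was above the lane threshold in 9 of 36 tumours. It was above in 2 of 6 Vehicle tumours, in 2 of 4 Anti-PD1 tumours and 2 of 4 TP-0903+anti-PD1 tumours, in 1 tumour each of the TP-0903, Gemcitabine and triple arms, and in 0 tumours of TP-0903+Gemcitabine and of Gemcitabine+anti-PD1. Its arm means ran from 13.0 ± 7.76 in TP-0903+anti-PD1 (SD, n = 4) to 19.2 ± 7.02 in TP-0903 (n = 4), against 16.03 ± 3.30 in Vehicle (n = 6). After subtraction of the negative-control mean the lowest arm was TP-0903+Gemcitabine at 1.02 ± 2.16 (SD, n = 5), against 2.82 ± 8.39 (n = 4) in TP-0903+anti-PD1. The highest value, 29.5 in TP-0903 replicate 3, was 15 raw counts and below that lane's threshold. The log2 folds against Vehicle lay between -0.34 and 0.21, none called, the upper end being that of TP-0903. Without the 2 tumours that stood apart, TP-0903 had a mean of 15.7 ± 1.71 (SD, n = 3) and Vehicle 15.7 ± 3.54 (n = 5). The log2 fold of TP-0903 was then 0.002.

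**Figure D2:**
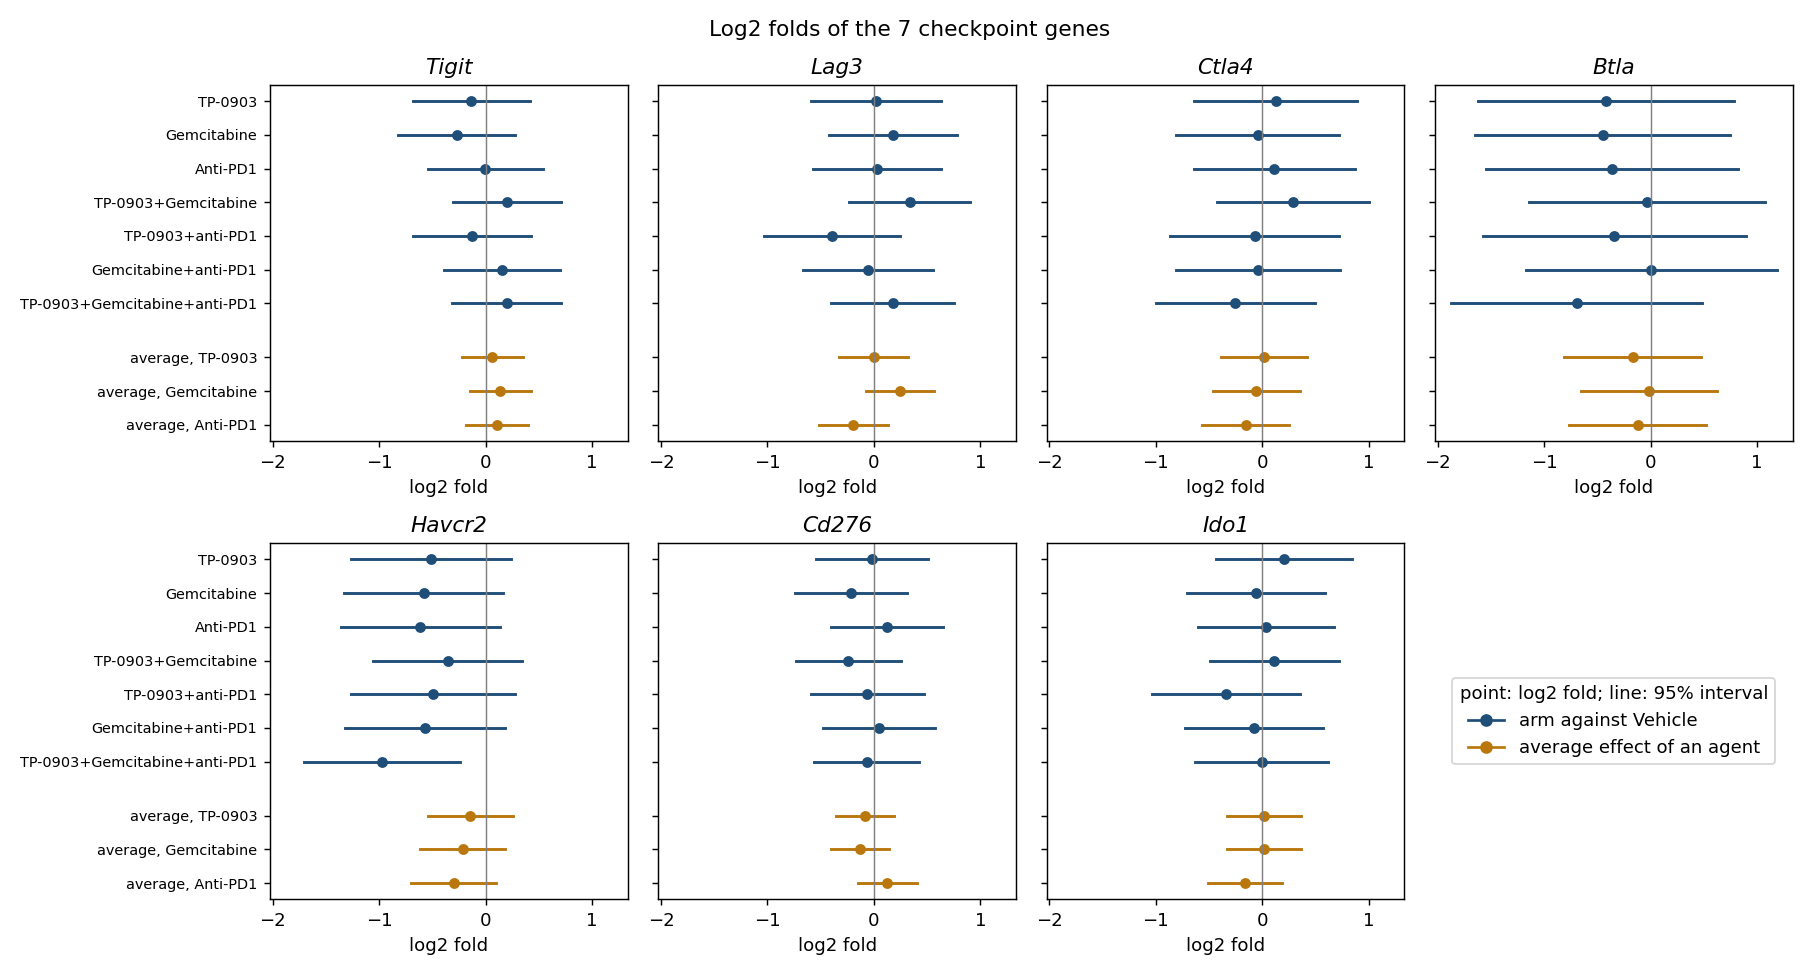
Log2 fold of each gene with its 95% interval from edgeR, for the 7 treated arms against Vehicle (blue) and for the average effect of each agent (orange). The interval of Havcr2 in the triple arm, -1.71 to -0.24, is the sole one that leaves out 0, and its adjusted p was 0.264.

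Without a block, the average effects carried smaller errors than the single arms. Over the 7 genes the average log2 folds of TP-0903 lay between -0.17 and 0.06, those of Gemcitabine between -0.21 and 0.25 and those of Anti-PD1 between -0.30 and 0.13, with SEs of 0.14 for Cd276 to 0.31 for Btla. Btla had the widest 95% intervals, that for TP-0903 running from -0.81 to 0.47. Its averages for TP-0903, Gemcitabine and Anti-PD1 were -0.17, -0.01 and -0.12. Without the 2 tumours that stood apart they were -0.002, 0.29 and 0.19. With cartridge as a block and all tumours kept, the average log2 folds of the 7 genes moved and several turned sign. The average log2 fold with Anti-PD1 was then 1.02 ± 1.00 for Btla and 0.67 ± 0.61 for Ctla4, against -0.12 and -0.16 without the block (SE). It was -0.96 ± 0.57 for Lag3, -0.94 ± 0.71 for Ido1 and -0.72 ± 0.65 for Havcr2, and no edgeR adjusted p for Anti-PD1 was under 0.999. Cartridge 3 was linked to the others only by TP-0903+anti-PD1, which had 1 lane on cartridge 2. That lane, replicate 1, had the lowest Lag3 and Ido1 of all 36 tumours, at 5 and 3 raw counts. Both counts were below its negative-control mean, at ratios of 0.66 and 0.39. With the block the values ran from -0.28 to 0.20 for TP-0903 and from -0.38 to 0.59 for Gemcitabine. The median log2 fold of the 7 genes was 0.00 with TP-0903, -0.01 with Gemcitabine and -0.16 with Anti-PD1, beside 0.03, -0.03 and -0.04 over all genes tested. The antibody blocks the PD1 protein, so these transcripts do not check whether it acted.

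Partners of the 7 proteins were followed on 10 tested genes. In TP-0903 against Vehicle 1 of the 10 was called higher, Ceacam1, an adhesion receptor that binds TIM-3, where 4.83% of all genes were called. Ceacam1 ran from 66.6 to 313 scaled counts in Vehicle with a median of 190, and TP-0903 tumours had 776, 409, 578 and 318, all above every Vehicle tumour, and 1.02% of all genes did not overlap between these arms. Its log2 fold was 1.41 ± 0.41 (SE, edgeR adjusted p = 0.0323). Without the 2 tumours that stood apart the log2 fold was 1.32, and the adjusted p was 0.632. In TP-0903 against Vehicle with all tumours, Cd80, a ligand of CTLA-4, had a log2 fold of 0.67 ± 0.34 (edgeR adjusted p = 0.34). In the triple arm 0 of 10 partners were called. The smallest p-values there were those of Lgals3, which encodes galectin-3, a ligand of LAG-3, and Ceacam1. They had 0.69 ± 0.32 and 0.67 ± 0.38 on the log2 scale (edgeR adjusted p = 0.368 and 0.483). The values of Cd80, and of these 2 genes in the triple arm, without the tumours that stood apart are not reported here. When TP-0903 was added to Gemcitabine 0 of 10 were called, with Cd160, a receptor for HVEM, at 0.79 ± 0.35 and Tnfrsf14, HVEM itself, at -0.74 ± 0.47 (edgeR adjusted p = 0.615 and 0.751).

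The list of other checkpoint and costimulation genes had 21 tested members and 0 calls in each of the 16 comparisons. When TP-0903 was added to Gemcitabine, 20 of 21 had positive log2 folds and 7 had an unadjusted p under 0.05 with edgeR, against 7.76% of all genes. The median log2 fold was 0.66 for the list, 0.23 for the 7 members and 0.20 for all genes. The scaled negative-control mean was 16.5 ± 4.51 (SD, n = 5) in TP-0903+Gemcitabine and 11.3 ± 3.98 (n = 4) in Gemcitabine, housekeeping counts divided by those of the positive controls gave 0.141 to 0.341 and 0.256 to 0.449, and positive-control scaling moved the median of all genes to -0.47. Their part in the shift of the list was not tested. Pdcd1lg2, which encodes the PD1 ligand PD-L2, had 1.21 ± 0.40 and the costimulatory receptor gene Cd28 0.84 ± 0.29 (SE, log2 fold, edgeR adjusted p = 0.49 for both). The smallest adjusted p of the list was that of Pdcd1lg2 in the interaction of TP-0903 and Anti-PD1, a log2 value of -1.44 ± 0.40 (edgeR adjusted p = 0.0571). It was followed there by the gene of the phosphatidylserine receptor TIM-4, Timd4, at -2.14 ± 0.65 (adjusted p = 0.0958). This interaction includes the TP-0903 and Vehicle arms. Its values for these 2 genes without the tumours that stood apart are not reported here. In the triple arm Tnfrsf9, which encodes the costimulatory receptor 4-1BB, had 0.77 ± 0.27 and Cd200, the ligand of an inhibitory myeloid receptor, -1.26 ± 0.46 (edgeR adjusted p = 0.231 and 0.264). Without the 2 tumours that stood apart Cd200 was at -0.13, and the value of Tnfrsf9 is not reported here. In TP-0903 against Vehicle, Cd200 had -1.15 ± 0.48 and Timd4 1.27 ± 0.60 (edgeR adjusted p = 0.261 and 0.315), and without those tumours 0.27 and 0.04.

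The tryptophan and interferon gamma list had 10 tested members. Tdo2, which encodes the tryptophan dioxygenase of hepatocytes, was called higher in TP-0903 against Vehicle, where 4.83% of all genes were called, with a log2 fold of 7.16 ± 1.21 (SE, edgeR adjusted p = 0.000824). Its 4 TP-0903 values were 11.5, 84.5, 9961 and 12.03 scaled counts, and the third belongs to the tumour with liver transcripts. Without the 2 tumours that stood apart the log2 fold was 1.03 (edgeR adjusted p = 0.854). Tdo2 was also called in the interaction of TP-0903 and Anti-PD1 (1.46% of all genes), at -7.03 ± 1.33 (edgeR adjusted p = 0.00655), and without those tumours it was at -3.96 (adjusted p = 0.124). In the triple arm 0 of 10 were called, and Ciita, the activator of MHC class II genes, had a log2 fold of -0.95 ± 0.43 (edgeR adjusted p = 0.366). Without those tumours the value was -0.47. When TP-0903 was added to Gemcitabine, the chemokine gene Cxcl11 had 0.84 ± 0.30 and Tdo2 2.90 ± 1.34 (edgeR adjusted p = 0.49 and 0.636). For Tdo2, TP-0903+Gemcitabine replicate 3 had 332 scaled counts and the others of that arm 8.37 to 41.6. Anti-PD1 replicate 3, kept in both fits of the interaction, had 926. After TP-0903 replicate 3 (13.2), these tumours had the highest mean log2 level of the liver list, 7.38 and 7.25.

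Across the 36 tumours the members varied with cell lists to different degrees. Each of the 7 genes was correlated with the mean log2 level of 5 lists, giving 35 relations, of which 9 passed in Spearman's rho and 8 in Pearson's r after Benjamini-Hochberg adjustment over the 35. All p-values here come from 100000 permutations, the smallest they can give being 1e-05. The gene and the list share the housekeeping factor of each lane. Tigit and Ido1 had no relation that passed.

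Btla had the highest correlation with the T cell core list, a rho of 0.83 (permutation p = 1e-05, adjusted p = 0.00035) and an r of 0.86. Without the 2 tumours farthest from the median of the list, TP-0903+Gemcitabine replicate 2 and Vehicle replicate 3, r was 0.80. Within the cartridges rho was 0.90, 0.89 and 0.64. Btla also followed the dendritic cell list, with a rho of 0.70 (permutation adjusted p = 0.00035), an r of 0.74 and an r of 0.60 without the same 2 tumours. Within the cartridges that rho was 0.55, 0.73 and 0.81. Btla counts were at or below threshold in 24 of 36 tumours, and its rho with the scaled negative-control mean was 0.36.

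Ctla4, Lag3 and Havcr2 had lower correlations with the T cell core list. For Ctla4 rho was 0.60 (permutation adjusted p = 0.0014) and r 0.64, for Lag3 0.52 (adjusted p = 0.00882) and 0.52, and for Havcr2 0.51 (adjusted p = 0.00922) and 0.55. Without the 2 farthest tumours r was 0.64, 0.51 and 0.38. Within cartridge 3 the rho of the 3 genes was 0.29, -0.12 and 0.20, against 0.54, 0.54 and 0.62 within cartridge 1 and 0.82, 0.83 and 0.58 within cartridge 2. With the mean of each cartridge removed, rho over the 36 tumours was 0.61, 0.50 and 0.49 (permutation adjusted p = 0.0014, 0.0148 and 0.018). Whether the relations differ between cartridges was not tested. Ctla4 and Lag3 also followed the lane background, with rho of 0.60 and 0.63 with the scaled negative-control mean, and the list itself had 0.38. After subtraction of the negative-control mean, Ctla4 kept a rho of 0.49 (permutation adjusted p = 0.016) and Lag3 had 0.35 (adjusted p = 0.123).

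With the dendritic cell list, Ctla4 had a rho of 0.48 (permutation adjusted p = 0.0182) and an r of 0.40, and Havcr2 a rho of 0.44 (adjusted p = 0.0284) and an r of 0.52. Without the 2 farthest tumours r was 0.34 and 0.27. The relation of Ctla4 did not pass after subtraction of the negative-control mean (rho = 0.19, permutation adjusted p = 0.455) or under positive-control scaling (rho = 0.29, adjusted p = 0.186). Within cartridge 3 the rho was 0.29 and -0.08. Havcr2 had a rho of -0.55 with the epithelial and tumour cell list (permutation adjusted p = 0.00455) and an r of -0.31, with rho of -0.79, -0.80 and -0.16 within the cartridges and 0.05 under positive-control scaling.

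Cd276 followed the fibroblast and stroma list with a rho of 0.47 (permutation adjusted p = 0.0202) and an r of 0.56. Without the 2 farthest tumours, TP-0903 replicate 3 and Vehicle replicate 3, r was 0.43 and rho 0.38, and Havcr2 then had a rho of 0.41 with this list. The rho was 0.73 within cartridge 1, 0.45 within cartridge 2 and -0.03 within cartridge 3, and 0.59 over all tumours with cartridge means removed (permutation adjusted p = 0.00192). With the T cell core list Cd276 had an r of -0.56 (permutation adjusted p = 0.00315) and a rho of -0.41, which did not pass (adjusted p = 0.0519).

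**Figure D3:**
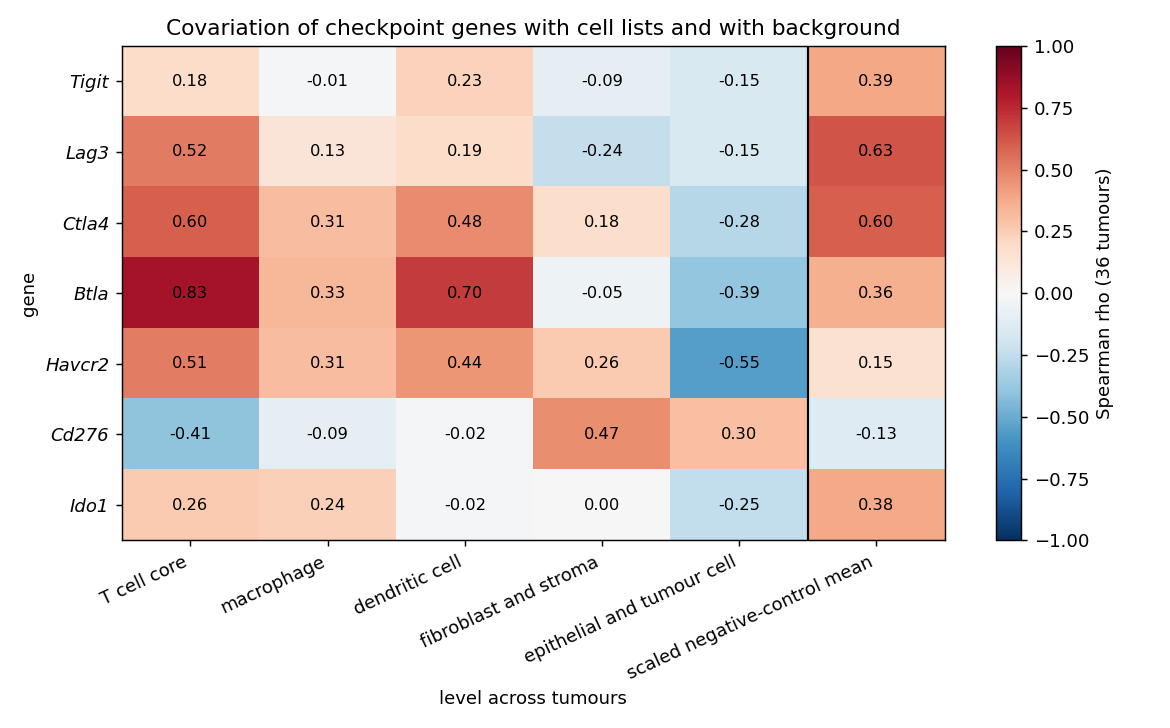
Spearman rho across 36 tumours between each gene and the mean level of 5 cell lists, with the rho with the scaled negative-control mean (background) to the right of the line. The rho of Btla with the T cell core list is 0.83, and those of Lag3 and Ctla4 with background are 0.63 and 0.60.

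**Figure D4:**
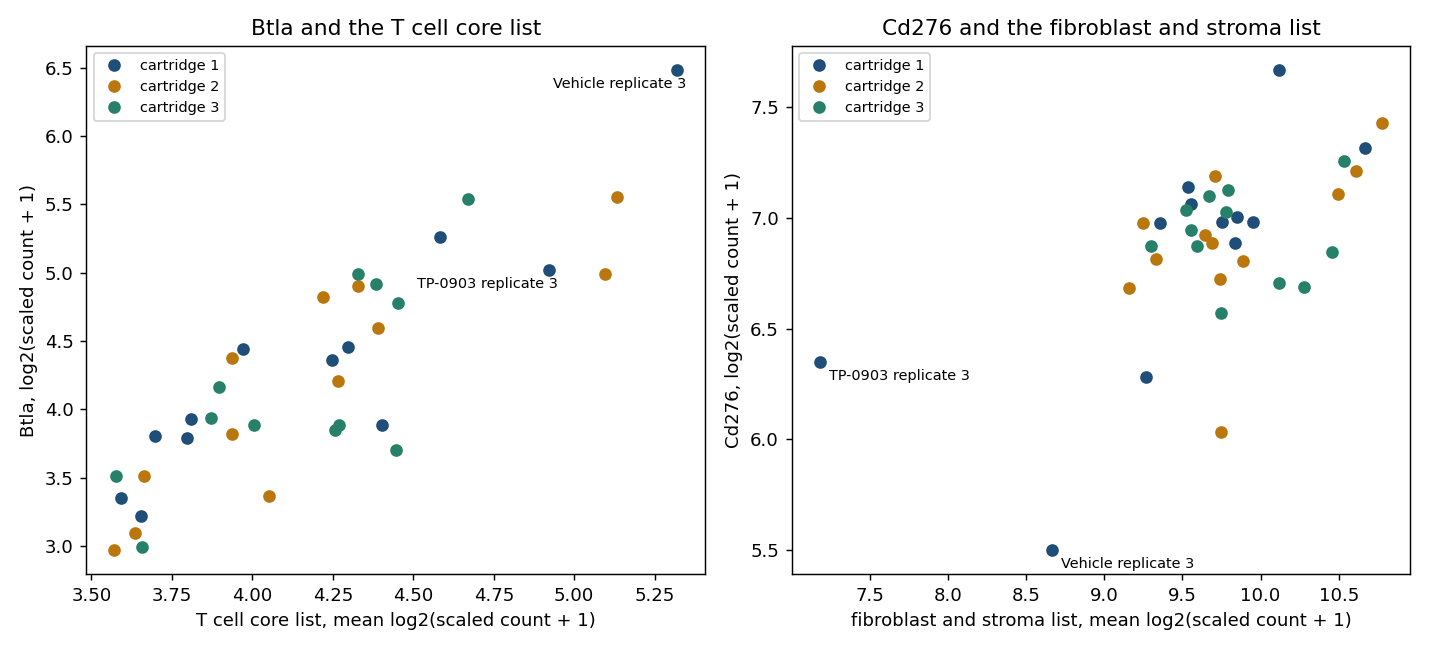
Level of Btla against the T cell core list and of Cd276 against the fibroblast and stroma list, as log2(scaled count + 1), each point a tumour coloured by cartridge. Vehicle replicate 3 and TP-0903 replicate 3 are named. Vehicle replicate 3 is the highest tumour for Btla and the lowest for Cd276.

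Among the 21 pairs of members, rho ran from -0.40 for Lag3 and Cd276 to 0.58 for Ctla4 and Btla, with a median of 0.20. Outside the members, the genes most like Btla over the 36 tumours were Itgal (rho = 0.84), Trp53 (0.82) and Blk (0.82). Ctla4 was most like Masp2 (0.75), Ptgdr2 (0.74) and Egr2 (0.65), and Masp2 exceeded the threshold in 4 lanes and Ptgdr2 in 7. Tigit was most like Klrc1 (0.67), Gfi1 (0.58) and Csf3 (0.54). Lag3 was most like Ddx60 (0.66), Klrb1 (0.60) and Cd160 (0.59), of which the last 2 had rho of 0.70 with background. Havcr2 was most like Hcst (0.63), Tek (0.63) and Nlrp3 (0.60). For Cd276, well above background, Fn1 (0.60) and Runx1 (0.60) were among the genes most like it. Ido1 was most like Ccl4 (0.52), Klrg1 (0.51) and H2-T23 (0.50). These values are descriptive and were picked as the highest of all tested genes.

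Promoters are shown for Ctla4 and Btla, the pair of members that varied most alike, and for Cd276, the member farthest above background. Each runs from 250 bases before to 50 after the gene's start, from RefSeq on build GRCm38.p6, where 5 of the 7 members had an entry. The windows are chr1:60908775-60909074 on the plus strand for Ctla4, chr16:45224087-45224386 on the plus strand for Btla and chr9:58554984-58555283 on the minus strand for Cd276. Capitals mark the letters TATAAA, searched on both strands.
Ctla4: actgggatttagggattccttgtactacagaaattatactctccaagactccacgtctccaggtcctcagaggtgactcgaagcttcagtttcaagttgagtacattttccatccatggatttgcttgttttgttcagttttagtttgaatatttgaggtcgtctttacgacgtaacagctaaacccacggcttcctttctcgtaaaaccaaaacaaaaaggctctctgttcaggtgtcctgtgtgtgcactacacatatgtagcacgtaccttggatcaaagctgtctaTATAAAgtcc
Btla: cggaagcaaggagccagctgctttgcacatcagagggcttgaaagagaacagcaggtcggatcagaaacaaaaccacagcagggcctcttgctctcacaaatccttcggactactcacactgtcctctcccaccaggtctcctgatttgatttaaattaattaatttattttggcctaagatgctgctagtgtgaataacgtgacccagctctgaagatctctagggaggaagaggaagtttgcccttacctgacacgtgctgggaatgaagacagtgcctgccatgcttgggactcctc
Cd276: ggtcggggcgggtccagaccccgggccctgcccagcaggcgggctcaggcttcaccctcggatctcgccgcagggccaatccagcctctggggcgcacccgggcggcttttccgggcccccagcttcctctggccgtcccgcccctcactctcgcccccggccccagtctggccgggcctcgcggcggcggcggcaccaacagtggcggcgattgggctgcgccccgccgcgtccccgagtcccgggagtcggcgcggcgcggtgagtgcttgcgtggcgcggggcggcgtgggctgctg
GC content was 42% for Ctla4, 49% for Btla and 78.3% for Cd276, beside a median of 52.7% over all 32851 promoters, of which 98.4% had a GC content no higher than that of Cd276. The Cd276 window held 39 CpG dinucleotides, Ctla4 8 and Btla 5, against a median of 7. TATAAA occurred in the Ctla4 window, with its first base 40 bases after the start, and in 13.6% of all promoters. The interferon-type motif TTCNNNGAA, which reads the same on both strands, was in 8.30% of all promoters and in none of these windows.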

How the data were processed

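RNA of 36 tumours was counted on 3 nCounter cartridges. The authors deposited a table of whole-number counts for 770 genes, and 27720 of 27720 values equalled those in the deposited lane report. The values are therefore raw counts, although the series' design text speaks of normalization to positive controls and housekeeping genes. The deposited lane report supplied control probes, cartridges and other values such as lane attributes, per the file headers. Groups came from the labels.

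Library sizes followed each lane's geometric mean over 20 housekeeping genes. A gene was tested if at least 4 lanes exceeded their background threshold (683 tested, 67 not). All 36 libraries entered a single edgeR 4.0.16 quasi-likelihood fit with 8 arms (robust dispersion, R 4.3.3), two-sided, adjusted by Benjamini-Hochberg within each of 16 comparisons and called under 0.05. SEs are Wald SEs from that fit. An average effect is the mean of 4 contrasts and an interaction the difference of an agent's effect with and without another agent. The labels name each tumour separately but give no cage or surgery batch. Permutation p-values for correlations used 100000 resamples (SciPy 1.17.1). Alternatives were DESeq2 1.42.0, limma 3.58.1 with a pseudocount of 1, other scalings (TMM, DESeq2 size factors, positive controls), other filters, cartridge as a block and left-out libraries. The scripts were tested on simulated data.

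The 7 members and the gene lists were chosen with earlier results of these data known. Named genes were the members, the 3 genes most alike to each, and from each pathway list the called genes or else the 2 smallest p-values. Some genes this rule names are not reported here. Tumour numbers within an arm follow accession order and pair nothing. The chi-square per gene between libraries of an arm was at least 8.41, so no library was counted as a duplicate.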

Additional observations from a re-analysis of the deposited data

Results flagged for a closer look

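Of 56 sets formed by a member and an arm, 4 had a tumour whose gap to its nearest neighbour exceeded Dixon's 95% critical value. Chance gives about 1 in 20 such sets. Ctla4 was highest in TP-0903 replicate 3 at 43.2 scaled counts, which came from 22 raw counts in the tumour with liver transcripts, and in Gemcitabine replicate 2 at 52.5. Tigit was highest in Gemcitabine+anti-PD1 replicate 4 at 52.9, where the other 3 tumours lay between 37.2 and 39.5. Btla was highest in Vehicle replicate 3 at 88.5, in the tumour with lung transcripts. The cause of each was not tested.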

How the results depend on the processing

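The count of called members stayed at 0 in 504 of 505 alternatives, and was 1 for TP-0903+Gemcitabine against Vehicle under positive-control scaling, where 140 of all genes were called, against 3 with housekeeping scaling. In TP-0903 against Vehicle 33 of all genes were called by edgeR, 15 by DESeq2, 0 by limma and 0 without the 2 tumours that stood apart. Over the alternatives the calls among all genes ran from 0 to 140 in TP-0903+Gemcitabine, from 0 to 11 in the triple arm (6 reported), from 0 to 19 for the average effect of Gemcitabine (1 reported) and from 0 to 10 for the interaction of TP-0903 and Anti-PD1 (10 reported). The count of called members was 0 in every comparison when each tumour was left out in turn. Of 3503 alternative log2 folds of members, 462 had the opposite sign to the reported value, none of them called. With cartridge as a block 12 of 112 member tests had an unadjusted edgeR p under 0.05 and 0 were called. Among these 12, Lag3 with TP-0903 added to Anti-PD1 was at -1.82. Within a cartridge that value rests on 1 TP-0903+anti-PD1 lane with 5 raw counts. With the block and without the 2 tumours that stood apart, the count under 0.05 was 21 of 112, and 0 were called. Among these 21, Lag3 in the interaction of TP-0903 and Gemcitabine was at 1.45, against a reported value of 0.39. The share of all genes under 0.05 with the block is not reported here. Neither count can therefore be set against the panel. Of 140 alternative correlations 126 kept their side of the threshold, 6 no longer passed and 5 newly passed. The 126 can include sign changes of relations that passed in neither setting. The other 3 changed sign and passed in the reported or the alternative setting, all under positive-control scaling. They were Havcr2 with the epithelial list, to 0.0476, Cd276 with the macrophage list, to 0.43, and Cd276 with the dendritic cell list, to 0.46. The cause was not tested. Ctla4 with the dendritic cell list no longer passed under that scaling (0.29) or after background subtraction (0.19). Without the 2 tumours that stood apart, Havcr2 with the dendritic cell list (rho = 0.39) and Cd276 with the fibroblast list (0.38) no longer passed. A filter of 18 lanes left 565 genes and dropped Btla and Ido1. DESeq2 gave no adjusted p for 8 of 112 member tests, among them that of Havcr2 in the triple arm. No paired analysis was possible because the labels give no replicate numbers shared between arms. The scaled background threshold lay between 11.4 and 39.3 counts, and the medians of Btla and Ido1 were 15.6 and 16.4.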
